A study of Rattus norvegicus with 12 samples.

Results

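U1 is the RNA of the particle that starts the splicing of most introns. These results concern every row of the deposited count table whose gene name is exactly U1, taken by name and kept apart by gene identifier, which gave 167 copies among 30560 genes. The RNA was taken from wild-type male Wistar Kyoto rats at 9 weeks of age, from the red inner gastrocnemius of the calf. Of 12 libraries, 6 were made from mitochondria and 6 from whole muscle of the same 6 animals. Mitochondria were pulled from fresh tissue with antibodies, and RNase A (which degrades RNA) and proteinase K (which degrades protein) were then applied to the isolates. From these, 10 ng of RNA entered each library. The whole muscle was snap frozen, no such enzyme step is described for it, and it gave 50 ng of RNA per library. All libraries were depleted of ribosomal RNA. Tissue state, enzymes, RNA kit, RNA input and depth changed together between the groups and cannot be told apart.

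The U1 particle, a small nuclear ribonucleoprotein, pairs the 5′ end of its RNA with the 5′ splice site of a pre-mRNA and also keeps pre-mRNAs from being cut and polyadenylated too early. RNA polymerase II transcribes U1 from several genes, and mammalian genomes carry many further U1-like copies, a large part of them pseudogenes. The RNA leaves the nucleus to receive a ring of Sm proteins and a trimethylated cap, and then returns, so that mature U1 is above all a nuclear RNA. The copies resemble each other closely, so counts may be split between copies or lost from all of them, depending on how multi-mapping reads were handled, which no source used here gives. The table gives no coordinates or lengths, and levels below are read counts scaled to a library total of 1000000 (CPM), not per length. An order of copies by level is thus an order of counts.

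The mitochondria libraries held 720111 to 1785865 counts and the muscle libraries 24309444 to 32055355, so that 1 count stood for 0.560 to 1.39 CPM in mitochondria and for 0.0312 to 0.0411 CPM in muscle. The 37 genes of the mitochondrial genome took 12.9% to 51.5% of the counts in mitochondria and 26.4% to 35.9% in muscle. The 7 skeletal fibre markers in the table summed to 407 to 718 CPM in mitochondria and 85849 to 116011 CPM in muscle, and none was at 0. The 5 leukocyte markers summed to 216 to 372 CPM in mitochondria and 29.7 to 52.4 CPM in muscle, with none at 0, and the 4 endothelial markers to 152 to 271 CPM in mitochondria and 259 to 452 CPM in muscle. The 4 red blood cell markers in the table summed to 30.2 to 70.9 CPM in mitochondria and 26.6 to 96.0 CPM in muscle, and Hbb-bs was at 0 in muscle. The part of these cell types in the U1 values was not tested, and in such bulk samples fewer cells of a type and less RNA per cell cannot be told apart.

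The first question was how much U1 each kind of library held. Few reads fell on U1 in either group, and their share was far larger in mitochondria. The 167 copies together had 208 to 398 counts per mitochondria library, with a median of 359.5, and 92 to 201 counts per muscle library, with a median of 133. Relative to the library total this was 258 ± 33.1 CPM in mitochondria and 5.02 ± 1.23 CPM in muscle (SD, n = 6 each). The lowest mitochondria library had 203 CPM and the highest muscle library 6.61 CPM, so the groups did not overlap. Within animals, the summed level was 39.9 to 69.0 times as high in mitochondria as in muscle, with a median of 52.4. The groups also did not overlap on another denominator: with counts of nuclear genes as the total, the sums were 393 ± 43.4 CPM in mitochondria and 7.37 ± 1.62 CPM in muscle. No p is given for these sums, since the copies were chosen with earlier results known. Most genes moved the same way: 69.6% of all genes with a count were higher in mitochondria without overlap in CPM. With total counts as scaling, the median log2 fold change over all genes was 5.57, and 4.61 after a filter for low counts. Those are values of single genes and not of a sum over copies, and nothing particular to U1 is read from the excess.

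**Figure D1:**
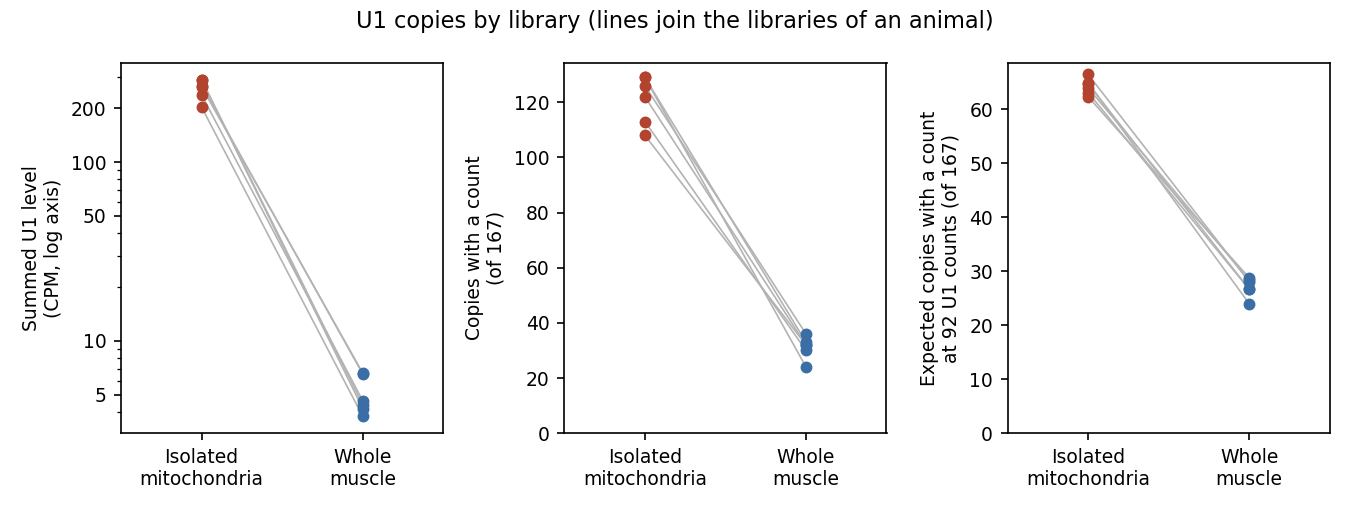
U1 values of each library, with isolated mitochondria on the left and whole muscle on the right of each panel and grey lines joining libraries of an animal. The left panel shows the summed U1 level in CPM on a log axis (203 to 289 in mitochondria, 3.78 to 6.61 in muscle), the middle panel the number of copies with a count, and the right panel the number expected at 92 U1 counts. All 6 mitochondria libraries lie above all 6 muscle libraries in each panel.

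The second question was how the counts were spread over the copies. In mitochondria they were spread thinly over most of the family, while in muscle a few copies took most of them. A mitochondria library had counts on 108 to 129 copies, and a muscle library, although far deeper, on 24 to 36. The smallest number of copies that held 50% of U1 counts was 30 to 33 in mitochondria and 3 to 8 in muscle. Because the U1 counts per library differed, the number of copies expected at 92 counts, the lowest U1 sum of any library, was computed exactly by drawing without replacement. It was 64.3 ± 1.46 copies in mitochondria and 27.1 ± 1.74 copies in muscle (SD, n = 6 each), with no overlap. The single highest copy held 2.23% of the group's U1 counts in mitochondria and 14.1% in muscle.

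The 10 copies with the most muscle counts made up 6.25% to 9.80% of U1 counts in the mitochondria libraries and 54.4% to 77.2% in the muscle libraries. The muscle share is in part fixed by choosing the copies there, but the mitochondria share is not. Of the 10 copies with the most counts in mitochondria, 1 was also among the 10 with the most in muscle, and 5 had no muscle count at all. Both lists are loose at their end. The tenth and the next copy in mitochondria differed by 1 count, and in muscle 3 copies tied at 27 counts for the last 2 places, so that the overlap is 1 or 2 copies. Over the choices among the tied copies, the share of the 10 muscle copies ran from 5.52% to 11.6% in the mitochondria libraries and from 54.4% to 77.2% in the muscle libraries.

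**Figure D2:**
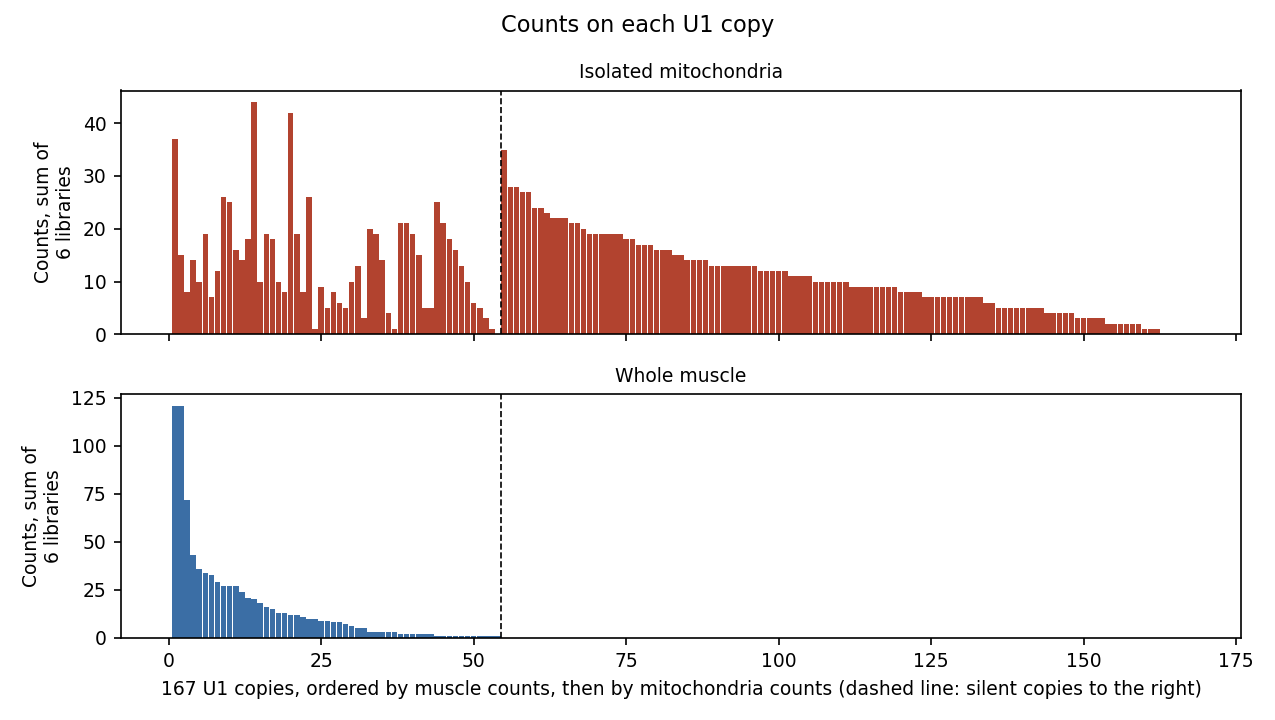
Counts summed over the 6 libraries of a group for each of the 167 U1 copies, with isolated mitochondria above and whole muscle below; both panels share the order of copies, by muscle counts and then by mitochondria counts. The highest copy has 44 counts in mitochondria and 121 in muscle, and the 113 copies right of the dashed line have no muscle count.

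The rule of the comparison sets expressed copies against silent ones. A copy was called expressed at a mean of at least 1 CPM in muscle, silent with no count in any of the 6 muscle libraries, and trace in between. No copy was expressed by this measure: 54 copies, or 32.3%, were trace and 113, or 67.7%, were silent. With a threshold of 0.1 CPM, 15 copies counted as expressed, and these held 75.9% of the U1 counts of muscle. Of the trace copies, 22 had only 1 to 3 muscle counts. Leaving out single muscle libraries put the number of silent copies at 114 to 117.

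Most silent copies had reads in mitochondria. Of the 113 silent copies, 108 had a count in at least 1 mitochondria library, which is 95.6%, beside 93.4% of 10014 nuclear genes that had no muscle count. In all 6 mitochondria libraries, 25 of the silent copies, or 22.1%, had a count, beside 64.6% of those nuclear genes, which are not matched to the copies for length. Silent copies held 57.8% to 66.8% of the U1 counts of the mitochondria libraries, with exact 95% intervals that reach from 51.6% to 72.5%, and by definition 0% in muscle. Since they are 67.7% of all copies, their share of the mitochondria counts lay under their share of the family. These intervals, and those below, cover counting error only.

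The copies with the most muscle reads also had somewhat more reads in mitochondria than the silent ones, but the class between them did not keep its place in every library. Per copy, the 15 copies at 0.1 CPM or more in muscle averaged 2.34 ± 0.496 CPM in mitochondria and 0.255 ± 0.0635 CPM in muscle (SD, n = 6 libraries each). The 39 other copies with a muscle count averaged 1.61 ± 0.403 CPM in mitochondria and 0.0306 ± 0.0102 CPM in muscle. The silent copies averaged 1.42 ± 0.198 CPM in mitochondria and were at 0 in muscle. The 15 copies were above the silent ones in 6 of 6 mitochondria libraries, by a factor of 1.30 to 1.98. The 39 copies were below the 15 in 5 of 6 libraries and above the silent ones in 4 of 6, and all 3 classes were in order in 3 of 6. The classes were set from the muscle libraries only, so their order in mitochondria is not built in, but copies are not replicates and no test was made over them.

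**Figure D3:**
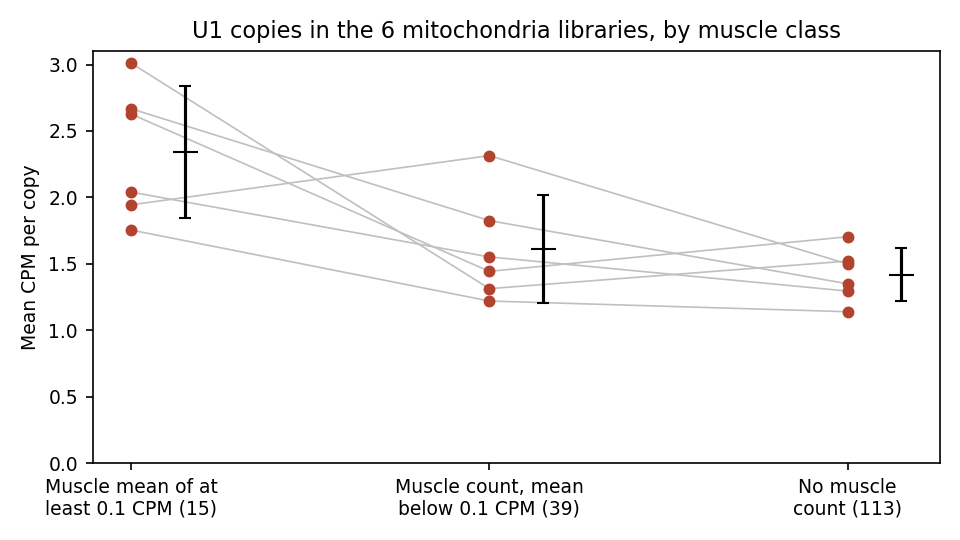
Mean CPM per copy in each of the 6 mitochondria libraries for U1 copies split by their level in muscle, with grey lines joining the values of a library and black bars giving mean and SD over libraries. All 3 classes are in order in 3 of the 6 libraries. The means are 2.34, 1.61 and 1.42 CPM for the 15, 39 and 113 copies of the 3 classes.

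Across the family, 46 copies had a count in all 6 mitochondria libraries, 13 had one in all 6 muscle libraries, and 4 had one in all 12. No count in any library fell on 5 copies. In muscle, 14 copies rested on a single library, and in mitochondria 7 did.

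**Figure D4:**
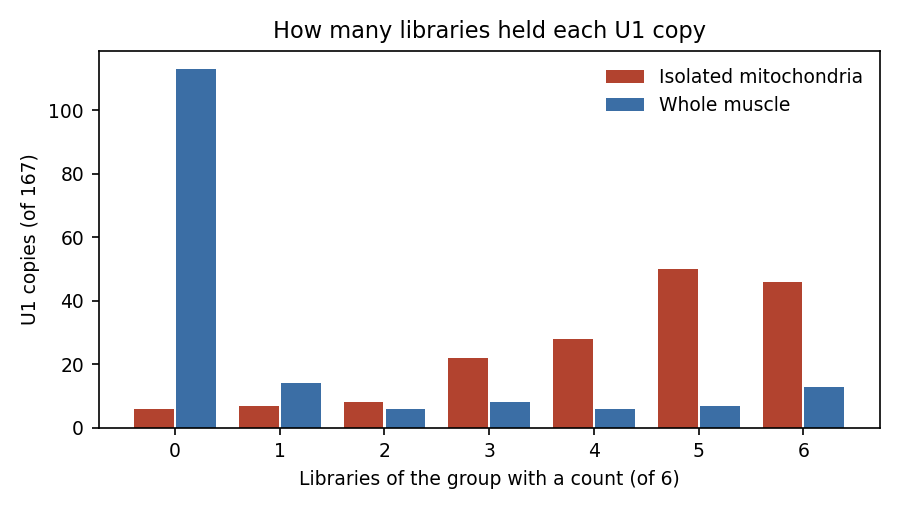
Number of U1 copies (of 167) by how many of the 6 libraries of a group had a count on them, with isolated mitochondria to the left of whole muscle in each pair of bars. In mitochondria 46 copies were in all 6 libraries and 6 in none, and in muscle 13 were in all 6 and 113 in none.

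The third question was which single copies differed between mitochondria and muscle. The 2 copies with the most muscle counts had ratios of counts per total, mitochondria over muscle, of 6.65 (95% exact interval 4.47 to 9.68) for ENSRNOG00000069150 and 2.696 (1.46 to 4.63) for ENSRNOG00000065236. ENSRNOG00000069150 had 2 to 14 counts in mitochondria, with a median of 4, and 12 to 27 counts in muscle, with a median of 20. That was 4.62 ± 2.96 CPM in mitochondria and 0.709 ± 0.194 CPM in muscle (SD, n = 6 each), and the groups did not overlap in CPM. ENSRNOG00000065236 had 0 to 4 counts in mitochondria, with a median of 2.5, and 12 to 28 counts in muscle, with a median of 20. That was 1.79 ± 1.05 CPM in mitochondria and 0.706 ± 0.186 CPM in muscle, and the groups overlapped because mitochondria replicate 1 had no count. Both share the first place in muscle, with 121 counts over the group.

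Neither of this pair passed the quasi-likelihood test of edgeR under TMM scaling, which computes a factor per library from a trimmed mean of gene-wise log ratios. The log2 fold change of mitochondria over muscle was 0.65 ± 0.34 for ENSRNOG00000069150 (SE) and -0.63 ± 0.41 for ENSRNOG00000065236 (SE, edgeR adjusted p = 0.139). ENSRNOG00000069150 passed the filter for low counts only through mitochondria, so its p is taken from the fit without a filter. In that fit this copy was at 0.59 ± 0.33 with TMM (SE, edgeR adjusted p = 0.0906). With total counts as the only scaling both were higher in mitochondria. ENSRNOG00000069150 was at 2.72 (edgeR adjusted p = 6.13e-10, without a filter) and ENSRNOG00000065236 at 1.42 (edgeR adjusted p = 0.00613, with the filter). The direction of ENSRNOG00000065236 thus flips with the scaling. Both copies lay far below the median over all genes tested in the filtered fit, which was 2.51 with TMM and 4.61 with total counts. The median over all genes thus shifted by 2.10 between the scalings, and each value is given beside it. The pair was named for having the most muscle counts, a choice that by itself lowers a fold of mitochondria over muscle. Their place below the median is in part built in, and their p-values are given as a description only. Without mitochondria replicate 6 ENSRNOG00000069150 passed, at 0.77 (edgeR adjusted p = 0.0386), and over single mitochondria libraries left out its adjusted p ran from 0.0386 to 0.442. In those fits the cutoff of the filter was 0.411 CPM, which this copy met in every muscle library.

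ENSRNOG00000057838, picked out after its values were seen, had the next most muscle counts. It had 0 to 3 counts in mitochondria, with a median of 1, and 3 to 27 counts in muscle, with a median of 10. Its CPM was higher in mitochondria in 3 of 6 animals and the groups overlapped. In the edgeR fit without a filter its log2 fold change was -0.85 ± 0.67 with TMM and 1.22 ± 0.69 with total counts (SE). Since it was chosen on its values, these are a description and no p is given.

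The trace copies with the most reads in mitochondria were ENSRNOG00000070410 and ENSRNOG00000063243. ENSRNOG00000070410 had 5 to 11 counts in mitochondria, with a median of 6.5, and 0 to 8 counts in muscle, with a median of 2.5. This gave 5.78 ± 1.53 CPM in mitochondria and 0.112 ± 0.0893 CPM in muscle (SD, n = 6 each), with no overlap between groups, and a log2 fold change of 3.44 ± 0.41 (SE, TMM). ENSRNOG00000063243 had 1 to 16 counts in mitochondria, with a median of 5.5, and 0 to 7 counts in muscle, with a median of 1. It averaged 5.31 ± 3.56 CPM in mitochondria and 0.0686 ± 0.0821 CPM in muscle, again without overlap, with a log2 fold change of 4.04 ± 0.52 (SE, TMM). Both copies were named for being high in mitochondria and passed the filter for low counts only there, so their values are a description and no p is given.

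Among silent copies, ENSRNOG00000056604 was the highest in mitochondria, with 2 to 8 counts per library, a median of 7 and 35 counts in all. Against a floor of 3 counts over the muscle group it was at least 254-fold higher by counts per total (4.85 ± 2.53 CPM in mitochondria, SD, n = 6). Such a bound takes the mitochondria counts as exact and leaves out their counting error. ENSRNOG00000052891 and ENSRNOG00000054701 had 28 counts each in mitochondria and were at least 203-fold higher. ENSRNOG00000056116 and ENSRNOG00000055436 had 27 counts each and were at least 196-fold higher. All 5 had a count in each of the 6 mitochondria libraries, with no count in any muscle library. They stand for the top of a continuous range, since the median silent copy had 10 counts in mitochondria over 6 libraries.

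Taken copy by copy as a ratio of counts per total, 94 silent copies were at least 28.996-fold to at least 254-fold higher in mitochondria. These bounds use the same floor and again leave out counting error in mitochondria. For the 32 copies with more than 3 muscle counts, where a ratio is best measured, it ran from 2.17 to 76.1, with a median of 15.7. Another 18 copies had 1 to 3 muscle counts and wide intervals, up to ENSRNOG00000051435, also picked out after its values were seen, at 544 (95% exact interval 89.0 to 22322) from 25 counts in mitochondria and 1 in muscle. Of the 50 copies with a ratio, 49 had an interval above 1, and ENSRNOG00000055502, with 1 count in mitochondria and 10 in muscle, did not, at 2.17 (0.0501 to 15.3). The remaining 23 copies had at most 3 counts in each group and get no ratio.

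Of the 167 copies, 28 passed the filter for low counts, and 139 were not tested. The filter asked for at least 0.766 CPM in any 6 of the 12 libraries, which no copy met in the muscle libraries alone. It also asked for a minimum count over all libraries. ENSRNOG00000060220, at 1.12 CPM or more in all 6 mitochondria libraries but with 13 counts in total, was thus not tested. ENSRNOG00000065236, with a count in 5 mitochondria libraries, also needed muscle libraries to pass. Each of the other tested copies passed through the mitochondria libraries and had to be high there. In that fit 26 copies were higher and 0 lower in mitochondria, beside 63% of all 24679 genes higher and 30.3% lower, and nothing is read from the count of copies. At an unadjusted p under 0.05 there were likewise 0 lower, with edgeR and with DESeq2. In the fit without a filter, 162 copies were tested and 143 were higher and 0 lower, beside 66.6% higher and 25.7% lower among 29900 genes.

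The fit without a filter allows the classes to be read apart. Of the 54 trace copies, 38 were higher in mitochondria, or 70.4%, which is near the 66.6% of all genes. With total counts 49 of them were higher, or 90.7%, and 0 lower, beside 86.2% of all genes higher and 7.46% lower. Of the 108 silent copies with a count, 105 were higher, and the other 3 had a single count each, but a silent copy can only be higher. The median log2 fold change of the 162 copies was 4.86 with TMM and 6.75 with total counts, beside 3.56 and 5.57 over all genes, and includes those silent copies. By the plainer measure of groups that do not overlap in CPM, 46 of the 162 copies with a count, or 28.4%, were higher in mitochondria and 0 lower, beside 69.6% higher and 5.63% lower among all genes with a count. These 46 were the 46 copies with a count in every mitochondria library, and the mean count per copy was 1.25 to 2.38 per mitochondria library.

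Next, U1 was set beside other small nuclear RNAs. U2 binds the branch point, U4, U5 and U6 join as a tri-snRNP, and U7 belongs to histone mRNA processing. The ratio of summed CPM, mitochondria over muscle, had a median over 6 animals of 52.4 for U1, 32.1 for U2, 29.01 for U5, 84.6 for U7, 100.0 for U6 and 103 for U4. The U1 ratio was above that of U2 and of U5 in 6 of 6 animals and below that of U4, of U6 and of U7 in 6 of 6. U12, of the minor spliceosome, had 26 counts in mitochondria and 10 in muscle, too few to place. The U5 ratios rest on 80 counts in mitochondria and 76 in muscle. No test was made on these sums over copies.

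**Figure D5:**
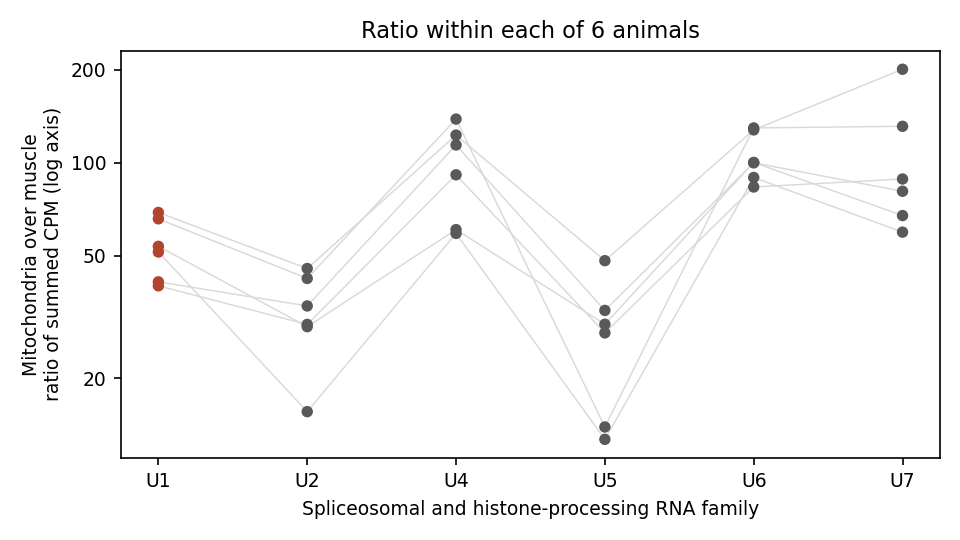
Ratio of summed CPM, isolated mitochondria over whole muscle, on a log axis for 6 RNA families, with a point per animal and grey lines joining the values of an animal (U1 in red). The U1 points run from 39.9 to 69.0, above the U2 and U5 points and below the U4, U6 and U7 points of the same animal.

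The share of copies silent in muscle was 67.7% of 167 for U1, 78.8% of 236 for U2, 85.3% of 136 for U4, 86.3% of 796 for U6 and 91.8% of 122 for U7, and in the small families 33.3% of 12 for U5 and 25% of 4 for U12. U1 thus lay below 4 of these families and above U5 and U12. Among the 5 families with over 100 copies, the top copy in muscle held 14.1% of counts for U1, 49.5% for U2, 20.5% for U4, 29.9% for U6 and 65.2% for U7. In mitochondria the top copy held 2.23% for U1, 1.73% for U2, 2.39% for U4, 0.459% for U6 and 4.20% for U7. Of these 5 families, U1 thus had the lowest share on a single copy in muscle, while in mitochondria no copy of any of the 5 held more than 4.20%. Of 1307 rows of the other small nuclear RNAs, 46 passed the filter, 42 of them higher and 3 lower in mitochondria with TMM (median 6.16, beside 2.51 over all genes, of which 63% were higher and 30.3% lower) and 43 higher and 0 lower with total counts (median 8.04, beside 4.61, with 84.3% higher and 9.03% lower). Only 3 of the 46 met the filter in muscle and 32 had no muscle count, so nearly all passed through mitochondria and nothing is read from this count. The highest U2 copy in muscle, ENSRNOG00000057077, had 2.73 ± 1.25 CPM in mitochondria and 3.76 ± 1.35 CPM in muscle (SD, n = 6 each), with a log2 fold change of -2.60 with TMM and -0.54 with total counts. It was named for its level in muscle, so no p is given.

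The proteins of the U1 particle are made from mRNAs, which the table also counts. Snrnp70, the U1-70K protein that holds the first stem-loop of U1, averaged 47.0 ± 16.3 CPM in mitochondria and 78.9 ± 9.82 CPM in muscle (SD, n = 6 each), and fell under both scalings, by 2.89 with TMM (edgeR adjusted p = 1.19e-18) and by 0.78 with total counts (edgeR adjusted p = 5.01e-05). Snrpa, the U1-A protein that binds the second stem-loop, averaged 22.2 ± 6.54 CPM in mitochondria and 2.38 ± 0.595 CPM in muscle, and rose by 1.09 with TMM (edgeR adjusted p = 6.81e-06) and 3.20 with total counts. Snrpc, the U1-C protein that steadies the pairing with the splice site, averaged 22.5 ± 13.4 CPM in mitochondria and 7.39 ± 3.23 CPM in muscle, and its sign differed between the scalings, at -0.58 with TMM (edgeR adjusted p = 0.0286) and 1.54 with total counts (edgeR adjusted p = 1.11e-07). Of the 3 mRNAs, 1 rose and 2 fell with TMM, and 2 rose and 1 fell with total counts. Of all 24679 genes tested, 63% rose and 30.3% fell with TMM, and 84.3% rose and 9.03% fell with total counts.

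The Sm proteins form the ring around U1 and other spliceosomal RNAs. Of 8 tested rows, 6 fell and 0 rose with TMM, with a median of -1.66, and 3 fell and 4 rose with total counts, with a median of 0.42. The shares over all genes were 63% higher and 30.3% lower with TMM, and 84.3% higher and 9.03% lower with total counts. Snrpf fell by 3.70 with TMM and fell by 1.61 with total counts. Snrpn fell by 3.66 with TMM and fell by 1.61 with total counts, and Snrpb fell by 2.48 and, with total counts, fell by 0.38. These 3 were named as the most abundant in muscle, a choice that by itself lowers a fold of mitochondria over muscle. They are also the 3 that fell with total counts, and the 4 that rose are not named. Of the 9 splicing factors that bind or assist U1, 7 fell with TMM and 0 rose, and with total counts 2 fell and 3 rose. The same shares over all genes stand beside these counts. Luc7l2, a relative of a yeast U1 protein, fell by 3.53 with TMM and fell by 1.42 with total counts. Its relative Luc7l3 fell by 3.19 with TMM and fell by 1.11 with total counts. Rbm25 fell by 1.76 with TMM and was at 0.32 with total counts, which did not pass (edgeR adjusted p = 0.0750). Luc7l2, Luc7l3 and Rbm25 were likewise named for their level in muscle, and this p is given as a description only.

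Genes that make and mature the RNA were counted under both scalings, which differ by a factor per library. The median over all genes shifted by 2.10 between them, and the shift of a single gene can differ from that. Of 24 genes of snRNA transcription and 3′ end processing, 16 fell and 2 rose with TMM (median -0.55), while 24 rose with total counts (median 1.54). Ice1 of the little elongation complex had a log2 fold change of -1.14 with TMM and 1.00 with total counts, Ints1 of the Integrator complex had -1.07 and 1.04, and Ell, an elongation factor, had -1.52 and 0.57. Snapc4, a subunit of the complex that binds snRNA promoters, had 62.7 ± 13.7 CPM in mitochondria and 2.03 ± 0.318 CPM in muscle (SD, n = 6 each), and was named for the size of its change, so no p is given. Of 18 tested genes of export, Sm ring assembly and cap formation, 13 fell and 2 rose with TMM (median -0.70), and 1 fell and 15 rose with total counts (median 1.404). Strap, a partner of the SMN complex, fell by 3.41 with TMM and fell by 1.32 with total counts, while Prmt5, the methyltransferase of Sm proteins, had -1.12 with TMM and 1.01 with total counts. Wdr77, the partner of Prmt5, fell by 1.83 with TMM and was at 0.26 with total counts, which did not pass (edgeR adjusted p = 0.184). Ice1, Ints1, Ell, Strap, Prmt5 and Wdr77 were named for their level in muscle. That choice by itself lowers their folds, so this p is a description only. Gemin4 of the SMN complex had 27.1 ± 11.5 CPM in mitochondria and 0.0316 ± 0.0525 CPM in muscle. Gemin4, like Snapc4, was named for the size of its change, and it passed the filter only through mitochondria. All of these list medians lay below the medians of 2.51 and 4.61 over all genes. With TMM 63% of all genes were higher and 30.3% lower, and with total counts 84.3% were higher and 9.03% lower.

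The genes whose levels ran most like those of ENSRNOG00000070410, the copy with the highest mean CPM over all libraries, were sought by Pearson's r of log2(CPM + 0.5) over the 12 libraries among 26072 genes. They were Olr1587, an olfactory receptor, Pold3, a subunit of a DNA polymerase, Apom, an apolipoprotein, and the unnamed ENSRNOG00000069402 and ENSRNOG00000064421, each with r = 0.997. The 12 libraries fall into 2 separate groups, each with its own depth and preparation. Within the 6 mitochondria libraries r was 0.950 for Olr1587, 0.862 for Pold3, 0.919 for Apom, 0.933 for ENSRNOG00000069402 and 0.994 for ENSRNOG00000064421. Within the 6 muscle libraries it was 0.678 for Olr1587, 0.943 for Pold3, 0.688 for Apom and 0.788 for ENSRNOG00000069402, while ENSRNOG00000064421 was at 0 in muscle and has no value. The genes were chosen as the highest of 26072 over these same libraries, so r within a group is in part selected for. In muscle it rests on 0 to 8 counts of ENSRNOG00000070410 per library.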

How the data were processed

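The authors deposited raw read counts for each gene, with Ensembl identifiers and gene names, in 1 table. Per the submitters' processing notes the tools were FastQC 0.74, cutadapt 4.6, STAR 2.7.11a and HTSeq, and the build was mRatBN7.2. Neither strand setting nor annotation release was found, so overlapping genes on opposite strands cannot be told apart. All 12 columns were used, matched to samples by the labels.

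The members and gene lists were chosen with earlier results of these data known. The whole table was fitted with edgeR 4.0.16 in R 4.3.3 (glmQLFit, glmQLFTest), using TMM scaling and group alone in the model. The function filterByExpr kept genes at its minimum count of 10 and its default minimum total over libraries. The p-values were adjusted by Benjamini and Hochberg, with 0.05 as the threshold. The steps were tested on simulated data in which few genes changed. In the real data most genes were called, so that test does not bear on such a case. SE was derived from the fold change and F. Positive fold changes mean higher in mitochondria. Folds of single copies are ratios of summed counts over summed totals, with exact 95% intervals from SciPy 1.17.1. Silent copies get bounds that set 3 counts over the muscle group as the floor and leave out counting error in mitochondria. Totals of 720111 to 1785865 counts in mitochondria and 24309444 to 32055355 in muscle limit precision.

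Equal numbers mark mitochondria and muscle of the same animal, per the labels, so the numbers pair the groups; the correlations of their deviations from the group means ran from -0.00747 to 0.0201. Replicates are separate animals. Alternatives were RLE factors, total counts, nuclear or mitochondrial genome counts as library size, DESeq2 1.42.0, no filter, the animal as a block, thinned counts, a fold of at least 2, other class thresholds and each library left out. No filter together with total counts, and silent copies without single muscle libraries, were chosen after seeing the data.

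Copies named by rule are the expressed copies, the 5 silent copies highest in mitochondria and the 2 trace copies highest in each group. From each list the rule takes the 3 genes most abundant in muscle and the one that changed most, and not all are printed. Malat1, Neat1, Xist, Rn7sk, Myh1, Hbb and Hba-a1 are not analysed here.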

Additional observations from a re-analysis of the deposited data

Results flagged for a closer look

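Of 30 groups of 6 libraries checked for a value that stands apart from the rest, 1 was met, and chance alone gives about 1 in 20. The copy ENSRNOG00000063243 had 0.2274 CPM in muscle replicate 2, from 7 counts, while the other 5 muscle libraries had 0 to 2 counts. The gap to the next library was 0.638 of the whole range.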

How the results depend on the processing

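The 0 copies called lower held under every alternative that tested a copy. Genes called lower ran from 1068 of 24341 (mitochondrial genome counts as library size) to 7673 of 29900 (no filter). Copies called higher were 26 of 28 tested in the reported fit. Of 162 tested they were 138 with DESeq2, 143 without a filter and 157 without a filter and with total counts. Over all genes, in the same order, these were 15544 of 24679, 20538 of 29889, 19910 of 29900 and 25788 of 29900. With single mitochondria libraries left out, 32 to 45 of 37 to 50 tested copies were higher (45 without replicate 1), beside 15959 to 16363 of 25287 to 25696 genes. The filter follows the median library total, so its cutoff was 0.411 CPM in those fits and 5.60 CPM with a muscle library left out, where no copy was tested; nor was one with counts thinned to 720111, and these alternatives give no value. The direction of ENSRNOG00000065236 reversed to 1.416 with total counts, 1.416 with total counts and no filter and 1.341 with mitochondrial genome counts as library size, where it did not pass (edgeR adjusted p = 0.0746). ENSRNOG00000069150, not past the threshold in the reported fit, passed with RLE factors at 1.02, with DESeq2 at 0.99 and with mitochondrial genome counts as library size at 2.84. In the reported fit and with RLE factors this copy was tested only through mitochondria. With the animal as replicate block, 26 copies were higher and 0 lower, beside 15511 higher and 7427 lower of 24679 genes. No call of a named copy changed there. Nothing is read from any of these counts of copies. With nuclear counts as the total, the summed level moved to 392.7 in mitochondria and 7.374 in muscle. Leaving out single libraries gave means of 252.1 to 269.3 CPM in mitochondria and 4.702 to 5.268 CPM in muscle. At a threshold of 0.1 CPM 15 copies were expressed. Silent copies numbered 114 to 117 without single muscle libraries. The cause of these changes was not tested beyond the filter cutoff. The low counts per copy limit every value of a single copy.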
